A study of Mus musculus with 16 samples.

Results

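The 8 control cultures of the series, those kept without oxygen-glucose deprivation (OGD), were described as 1 group. They were chosen from the sample labels alone, with no use of any measured value, and they make up 8 of the 16 cultures. All 16 were primary cortical neuron cultures prepared from wild-type mouse embryos at embryonic day 15 and harvested at day in vitro (DIV) 9. At DIV 8 they received vehicle (VEH) or 10 µM tianeptine (TIA), an atypical antidepressant, and 24 h later a 3-h OGD or a sham treatment, followed by 6 h of reoxygenation. The groups were CONTROL-VEH (cultures 1 to 4), CONTROL-TIA (cultures 5 to 8), OGD-VEH (cultures 9 to 12) and OGD-TIA (cultures 13 to 16). The controls therefore shared the sham treatment, and 4 of the 8 had also been exposed to tianeptine. Such cultures hold dissociated embryonic cells in a medium that favours neurons over dividing cells, they lack blood flow and long-range inputs, and the cells of several embryos are usually mixed. The study calls the cultures of a group biological replicates, but the labels do not say that they came from separate preparations, so the p-values below measure only the spread between these cultures, which may be technical.

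An embryonic day 15 cortex contains young glutamatergic projection neurons, which arise from radial progenitors of the cortical wall and use the vesicular glutamate transporter Slc17a7, and GABAergic interneurons, which migrate in from the ganglionic eminences and make GABA with Gad1 and Gad2. Tubb3 encodes a neuronal tubulin and Map2 a microtubule-associated protein of dendrites. Gfap, an intermediate filament, and Aqp4, a water channel, mark astrocytes, which appear late in development and go on dividing in culture. Microglia come from the yolk sac and vessels grow in from the pial surface, so both reach the cortex from outside.

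Expression was measured by poly(A) RNA sequencing and is given as FPKM, sequenced fragments scaled to transcript length and library size, summed over the isoforms of a gene. The value of a single read on a transcript of 1 kb was 0.0375 to 0.046 FPKM in the control cultures, which corresponds to a rough depth of 21700000 to 26700000 reads (21100000 to 27400000 in all 16 cultures). At that depth 1 FPKM on a transcript of 2 kb rests on 43 to 53 reads. The range of aligned reads that the study states is lower, so these read numbers may be too high. Of all gene symbols, 14236 had a median of at least 1 FPKM over the 8 controls, of which 12303 were protein-coding, and 14207 to 14605 reached that level in single cultures. The 10 highest genes held 7.58% to 8.19% of the summed FPKM and mitochondrial transcripts 4.68% to 5.34%. The highest protein-coding genes by median were mt-Cytb (7117 FPKM), the translation factor gene Eef1a1 (6819 FPKM), mt-Co1 (6816 FPKM), mt-Atp6 (6212 FPKM), the chaperone gene Hspa8 (6084 FPKM), Eif4g2 (5123 FPKM), mt-Nd1 (4808 FPKM), mt-Co3 (4766 FPKM), the tubulin gene Tubb2b (4647 FPKM) and mt-Co2 (4564 FPKM). One library, CONTROL-VEH 4, stood apart from the other 7 in 203 of 12904 genes, as described below, and the values that it moved most are also given without it.

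Neuronal markers of the labelled cell type were present in all 8 cultures, which does not show that other cells were few. Glial and progenitor genes are given below. Tubb3 (chr8:123411424-123422015, GRCm38) had values of 815, 871, 1008 and 1222 FPKM in the CONTROL-VEH cultures and 834, 827, 884 and 839 FPKM in the CONTROL-TIA cultures. Map2 had values of 512, 594, 667 and 655 FPKM with vehicle and 578, 632, 663 and 732 FPKM with TIA. Both neuronal genes were high throughout, and the largest Tubb3 value was only 1.50 times the smallest.

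Slc17a7 was the most even of the 6 markers, at 48.8, 51.5, 47.2 and 49.9 FPKM with vehicle and 49.2, 50.9, 43.7 and 56.7 FPKM with TIA. Gad1 was at 154, 108, 142 and 245 FPKM with vehicle and 179, 123, 118 and 188 FPKM with TIA. The spread of Gad1 was thus wider than that of Slc17a7, with 2.26 times between its extremes against 1.30 times. In FPKM, Gad1 exceeded Slc17a7 in every control, by 2.11 to 4.90 times, which compares the levels of 2 transcripts and not the numbers of inhibitory and excitatory cells.

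Gfap (chr11:102887336-102900912) had values of 6.95, 6.53, 7.56 and 87.4 FPKM with vehicle and 7.71, 5.09, 6.05 and 15.1 FPKM with TIA. Aqp4 had values of 8.63, 8.77, 10.7 and 23.4 FPKM with vehicle and 8.73, 9.96, 9.38 and 11.1 FPKM with TIA. The 2 astrocyte markers were therefore low in 7 cultures and highest in CONTROL-VEH 4, at 11.1 times the mean of the other 7 for Gfap and 2.44 times for Aqp4. The mean of Gfap was 17.8 ± 28.3 FPKM (SD, n = 8), and 7.85 ± 3.31 FPKM (SD, n = 7) without that culture.

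**Figure D1:**
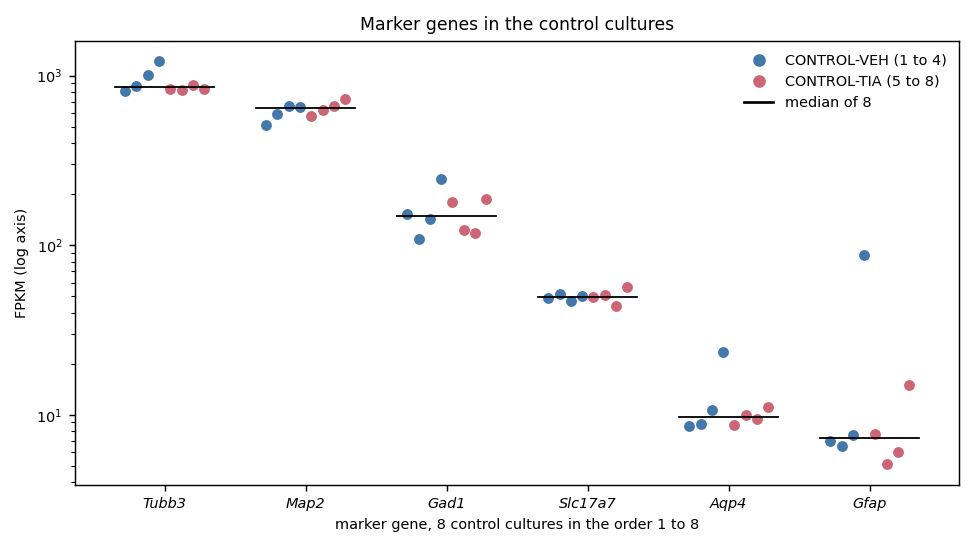
FPKM of the 6 marker genes (log axis) in the 8 control cultures, drawn from left to right within each gene as cultures 1 to 8, with CONTROL-VEH in blue, CONTROL-TIA in red and the median as a line. Tubb3 and Map2 lie between 512 and 1222 FPKM, while Gfap lies between 5.09 and 15.1 FPKM except for 87.4 FPKM in CONTROL-VEH 4.

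Neuronal genes were well represented in the baseline transcriptome. All 14 genes of the pan-neuronal list had a median of at least 10 FPKM, led by Gap43, a growth cone protein, at 1201 FPKM, and by the microtubule protein Mapt at 1046 FPKM. Stmn2, a regulator of axonal microtubules, followed Tubb3 at 791 FPKM. Dcx, which marks young migrating neurons, was still at 177 FPKM, whereas the neurofilament genes Nefl and Nefm, which rise as axons mature, were at 43.3 and 18.6 FPKM. The summed FPKM of the list ran from 6409 to 6997 over the 8 cultures, which was the narrowest relative range of the cell type lists.

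All 10 genes of the glutamatergic list were above 1 FPKM, with Nrgn, a postsynaptic calmodulin-binding protein, at 426 FPKM, the transcription factor Neurod6 at 157 FPKM and the kinase gene Camk2a at 109 FPKM. The second vesicular glutamate transporter, Slc17a6, was at 9.47 FPKM, and Slc17a7 exceeded it by 4.15 to 7.95 times in single cultures. Genes of both cortical layer groups were present, 8 of 8 for the upper layers and 11 of 12 for the deep layers and subplate. Mef2c (489 FPKM) and Lhx2 (248 FPKM) led the first group and Ldb2 (148 FPKM), Sox5 (86.2 FPKM) and Tbr1 (48.6 FPKM) the second. Of the Cajal-Retzius list only Reln and Calb2, both also made by interneurons, passed 1 FPKM, while Trp73 was at 0.565 FPKM and the medians of Lhx1, Lhx5 and Ebf2 lay below 0.2 FPKM.

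Among GABAergic genes all 13 passed 1 FPKM. Next to Gad1, the transcription factor Dlx1 was at 58.9 FPKM, while the vesicular transporter Slc32a1 was at 14.1 FPKM and Gad2 at 11.6 FPKM. The interneuron neuropeptides and calcium-binding proteins differed by orders of magnitude. Sst, encoding somatostatin, was at a median of 265 FPKM, Cck at 210 FPKM, Npy at 49.5 FPKM and Calb2 at 27.8 FPKM, whereas Vip was at 0.676 FPKM, Lamp5 at 0.820 FPKM and Pvalb, a marker of fast-spiking interneurons that appears late, at 0.315 FPKM. The Sst to Pvalb ratio was 267 or higher in each control.

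Glial and progenitor genes were also expressed. Of the astrocyte list 12 of 14 genes passed 1 FPKM, led by the glutamine synthetase gene Glul at 903 FPKM, by Aldoc at 290 FPKM and by the glutamate transporter Slc1a3 at 273 FPKM, whereas S100b was at 0.792 FPKM and the connexin gene Gjb6 at 0.0105 FPKM. The radial glia genes Fabp7 and Vim were at 1334 and 440 FPKM, and Sox2 and Nes at 40.9 and 22.1 FPKM. The committed precursor genes Eomes and Neurog2 lay below 1 FPKM, at 0.635 and 0.823 FPKM. Several of these genes are expressed in radial glia and astrocytes alike, so the lists overlap in what they mark.

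All 10 proliferation genes passed 1 FPKM, with Pcna at 95.1 FPKM, Cdk1 at 19.5 FPKM, Top2a at 17.6 FPKM and Mki67 at 3.58 FPKM. The oligodendrocyte lineage was present mainly through its precursor genes Olig1 (74.0 FPKM), Olig2 (49.9 FPKM) and Pdgfra (37.9 FPKM), while the myelin gene Mbp was at 6.46 FPKM and Mog and Mag at 0 and 0.220 FPKM. In bulk RNA, fewer cells of a type and less RNA per cell cannot be told apart, which holds for each of these levels.

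Most marker genes of microglia, vessels and blood were below 1 FPKM. Of 14 microglial genes 1 passed 1 FPKM, while Cx3cr1, C1qb and Trem2 had a median of 0, Csf1r and P2ry12 were at 0.0545 and 0.0590 FPKM, and Siglech was listed at 0 in all 8. None of the 8 endothelial genes passed 1 FPKM, with Esam highest at 0.545 FPKM, Pecam1 at 0.492 FPKM and Cldn5 at 0.0180 FPKM. Of 12 mural and meningeal genes Dcn was at 11.9 FPKM and Pdgfrb at 1.09 FPKM, and the collagen genes Col1a2 and Col3a1 were at 0.0550 and 0.0235 FPKM. The alpha globin genes Hba-a2 and Hba-a1, near-identical copies whose split is uncertain, were at 10.2 and 3.99 FPKM, but Hbb-bt and Alas2 were listed at 0 in all 8. The transthyretin gene Ttr of the choroid plexus was at 0.086 to 0.573 FPKM in 7 cultures and at 4.35 FPKM in CONTROL-TIA 5, where Folr1 was also highest at 6.40 FPKM.

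RNA from embryos of both sexes was present in each of the 8 libraries. Xist, transcribed from the inactive X chromosome, ranged from 186 to 387 FPKM, and the Y-linked genes Eif2s3y (22.3 to 53.1 FPKM), Ddx3y (5.66 to 8.09 FPKM), Kdm5d (4.01 to 5.70 FPKM) and Uty (1.63 to 4.21 FPKM) were found in each of them.

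**Figure D2:**
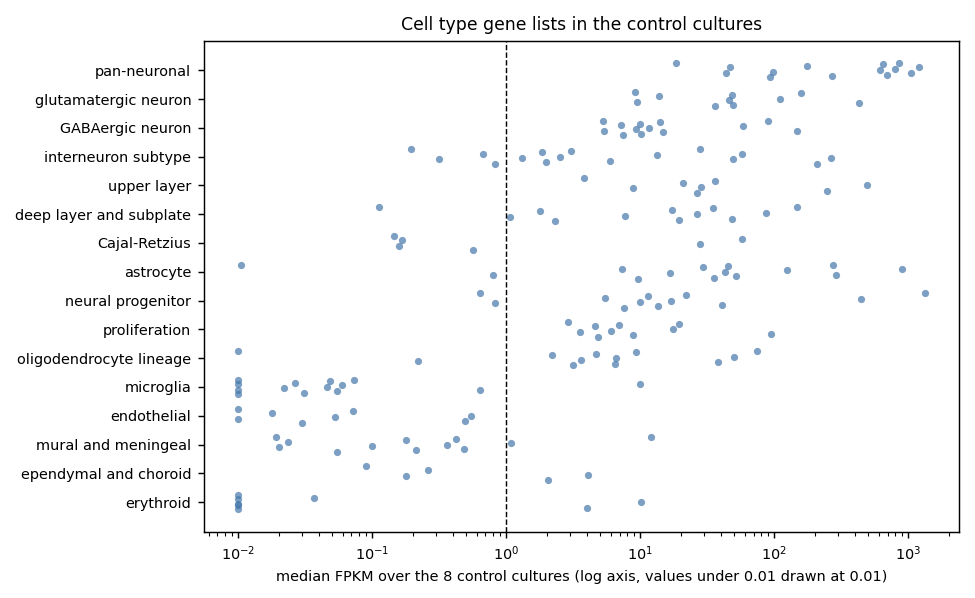
Each point is the median FPKM of 1 gene over the 8 control cultures (log axis), by cell type list, with the dashed line at 1 FPKM. All pan-neuronal genes lie above 10 FPKM, while the microglial, endothelial and erythroid lists lie almost wholly below 1 FPKM.

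The level of neuronal against astrocyte genes was summarised per culture as the mean log2(FPKM + 0.1) of the pan-neuronal list minus that of the astrocyte list. This difference was 3.36, 3.24, 3.08 and 2.43 in CONTROL-VEH 1 to 4 and 3.21, 3.28, 3.41 and 3.03 in CONTROL-TIA 5 to 8, with a mean of 3.13 ± 0.31 (SD, n = 8) and of 3.23 ± 0.14 (SD, n = 7) without CONTROL-VEH 4. The neuronal part was nearly constant, at 7.92 to 8.03, and the astrocyte part ran from 4.57 to 4.95 in 7 cultures and reached 5.51 in CONTROL-VEH 4. In the 8 OGD cultures the difference ran from 0.14 to 3.03, so the groups overlapped. OGD-TIA 15 came level with CONTROL-TIA 8 at 3.03, and OGD-VEH 9 (2.55), OGD-TIA 13 (2.84) and OGD-TIA 14 (2.78) lay above the 2.43 of CONTROL-VEH 4 but below the other 7 controls. In each group the culture of highest number had the lowest difference, with OGD-VEH 12 at 0.14 and OGD-TIA 16 at 1.08. The groups were not compared by a test on these values, since the lists were chosen with earlier results of these data known. Astrocyte genes near 0 FPKM, such as Gjb6, weigh on the size of the difference, whose mean over the controls was 2.05 with list genes under 1 FPKM left out.

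**Figure D3:**
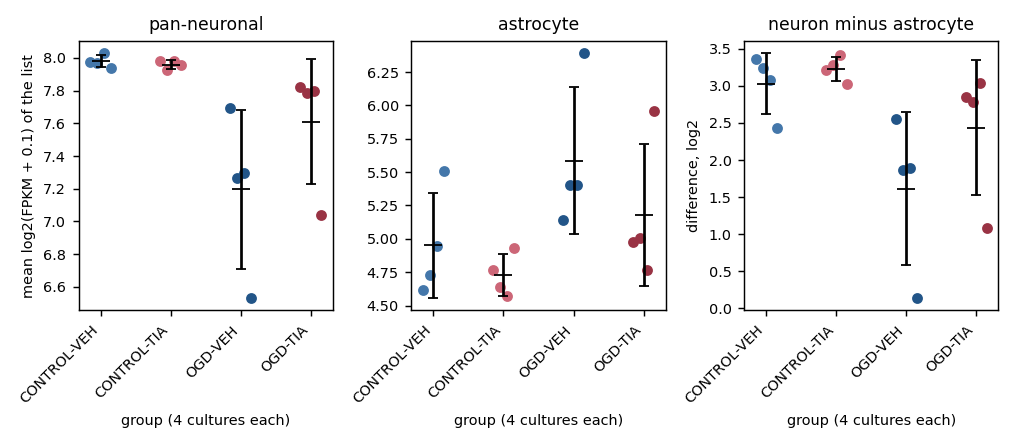
Mean log2(FPKM + 0.1) of the pan-neuronal list (left) and of the astrocyte list (middle), and their difference (right), per culture in the 4 groups of 4, with the mean and SD in black. The pan-neuronal level of the 8 controls lies between 7.92 and 8.03, and CONTROL-VEH 4 has the highest astrocyte level of the controls, 5.51.

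Receptor genes for glutamate and GABA were among the highest. Of 170 receptor genes in 14 families, 92 had a median of at least 1 FPKM, 35 of at least 10 FPKM, and 3 were listed at 0 in all 8 cultures. Ionotropic glutamate receptors carry excitatory transmission, and all 4 AMPA and 7 kainate and delta receptor genes passed 1 FPKM. Gria2, whose subunit limits calcium entry, was highest among AMPA receptors with a lowest value of 150, a median of 157 and a highest of 173 FPKM, and Gria1 followed with 46.3, 61.7 and 102 FPKM. Their ratio was 1.66 to 3.52, the lower end coming from the Gria1 values of 102 FPKM in CONTROL-VEH 4 and 99.1 FPKM in CONTROL-TIA 8. Grik5, the gene of a kainate receptor subunit, was at 98.2 to 128 FPKM.

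The obligatory NMDA receptor subunit gene Grin1 was at 192 to 228 FPKM with a median of 200.3 FPKM. Grin2b, the predominant partner before and around birth, was at 30.2 to 38.0 FPKM, while Grin2a, which replaces it in the maturing cortex, was at 2.26 to 2.67 FPKM. The Grin2b to Grin2a ratio was 12.8, 13.7 and 15.3 (lowest, median and highest), so every control was far on the Grin2b side. Grin3a (9.42 FPKM) and Grin2d (2.87 FPKM) were also present, whereas Grin2c (0.334 FPKM) and Grin3b (0.0885 FPKM) stayed below 1 FPKM. Of 8 metabotropic glutamate receptor genes 7 passed 1 FPKM, led by Grm5 at 43.1 FPKM, and Grm6, a retinal receptor, had a median of 0.

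GABA-A receptors, the main inhibitory chloride channels, were represented by 12 of 19 genes. Gabra5, the gene of an extrasynaptic alpha subunit, was at 45.4 to 56.7 FPKM with a median of 50.1 FPKM. The cerebellar gene Gabra6 had a median of 0. The metabotropic GABA-B receptor gene Gabbr1 was the highest of all receptor genes at 482 FPKM, and of the glycine receptor genes the embryonic alpha subunit gene Glra2 was at 27.3 FPKM with Glrb at 41.1 FPKM.

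Chloride transport decides whether GABA inhibits or excites. Slc12a5, the neuronal chloride extruder, was at 55.2 to 78.7 FPKM, and Slc12a2, the chloride importer of young neurons, was at 9.69 to 11.5 FPKM. The ratio of Slc12a5 to Slc12a2 ran from 5.45 to 7.05 with a median of 6.85, and was thus above 1 in each control.

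Monoamine receptors, by contrast, were all low. Of 14 serotonin receptor genes 7 passed 1 FPKM and none reached 10 FPKM. Htr6 was at 2.80 to 4.16 FPKM, Htr2c at 2.41 to 3.26 FPKM, the channel-forming Htr3a at 1.83 to 3.21 FPKM and Htr1a at 1.94 to 2.63 FPKM. Htr5a, Htr2a and Htr7 followed at 1.98, 1.40 and 1.39 FPKM, while Htr1b (0.844 FPKM) and Htr4 (0.279 FPKM) lay below 1 FPKM. Of the genes that make, store and clear serotonin only Maoa, which degrades monoamines, was present at 15.4 to 17.9 FPKM. The transporter gene Slc6a4 was at 0.118 to 0.247 FPKM and the neuronal synthetic enzyme gene Tph2 at 0.096 to 0.353 FPKM. Adra2a (6.64 FPKM), Adrb1 (3.45 FPKM) and Drd1 (2.02 FPKM) were among the 6 of 14 adrenergic and dopamine receptor genes above 1 FPKM.

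Tianeptine is known as an agonist of the mu-opioid receptor, which is encoded by Oprm1. Oprm1 was at 0.119, 0.212, 0.145 and 0.179 FPKM with vehicle and 0.175, 0.136, 0.101 and 0.285 FPKM with TIA, below 1 FPKM in each control and with overlapping groups. Oprd1 and Oprk1 were at 0.564 and 0.176 FPKM. The related nociceptin receptor gene Oprl1 was much higher at 29.96 to 43.7 FPKM, as was the cannabinoid receptor gene Cnr1 at 45.5 to 53.6 FPKM. Low bulk levels do not show how many cells express a receptor.

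Among the remaining families, the nicotinic subunit genes Chrna4 (20.9 FPKM) and Chrnb2 (14.7 FPKM) and the muscarinic Chrm1 (8.88 FPKM) led the 8 of 21 acetylcholine receptor genes above 1 FPKM, and the fetal muscle subunit gene Chrng was listed at 0. The adenosine receptor gene Adora1 was at 28.5 FPKM, while only 4 of 18 purinergic receptor genes passed 1 FPKM and the microglial P2ry12 was at 0.0590 FPKM. P2ry13 and P2ry14 were listed at 0 in all 8. Of 31 neuropeptide receptor genes 18 passed, led by the PACAP receptor gene Adcyap1r1 (56.6 FPKM), the neurotensin receptor gene Ntsr1 (20.9 FPKM) and Npy1r (10.5 FPKM). The BDNF receptor gene Ntrk2 was at 117 FPKM and Ntrk3 at 47.2 FPKM.

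Of 151 channel genes in 8 families, 101 had a median of at least 1 FPKM, 54 of at least 10 FPKM and 3 (Kcnk16, Kcnk18 and Trpc2) were listed at 0 in all 8. Voltage-gated sodium channels start the action potential, and here the beta subunit gene Scn3b (268 FPKM), Scn2a (60.6 FPKM) and the embryonic Scn3a (52.0 FPKM) were highest, with Scn8a at 24.6 FPKM and Scn1a at 5.67 FPKM. The channels of sensory neurons were low, Scn10a at 0.00300 FPKM and Scn11a at 0.231 FPKM. The T-type calcium channel genes Cacna1h (133 FPKM) and Cacna1g (113 FPKM) and the N-type gene Cacna1b (70.7 to 105 FPKM) led 15 of 18 calcium channel genes, and the muscle gene Cacna1s was at 0.0485 FPKM.

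Of 40 voltage-gated potassium channel genes, which end the action potential and set firing, 28 passed 1 FPKM. Kcna6 was at 21.9 to 31.5 FPKM and Kcnh3 at 19.5 to 27.6 FPKM. Of 29 inward rectifier and leak channel genes 16 passed, led by Kcnk2 (16.2 FPKM), Kcnk1 (15.7 FPKM) and Kcnk9 (13.8 FPKM), and the glial Kcnj10 was at 9.86 FPKM. The auxiliary subunit gene Kcnmb4 (61.6 FPKM) led the calcium- and sodium-activated family. All 4 pacemaker channel genes were present, with Hcn3 at 36.9 FPKM, Hcn2 at 19.2 FPKM and Hcn4 at 12.2 FPKM. The acid-sensing channel gene Asic1 (64.0 FPKM) and Trpm7 (32.7 FPKM), both studied in ischemia, were the highest of 26 in their family, and of the store-operated genes Itpr1 (47.5 FPKM), Stim2 (32.4 FPKM) and Orai2 (22.8 FPKM) stood out.

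**Figure D4:**
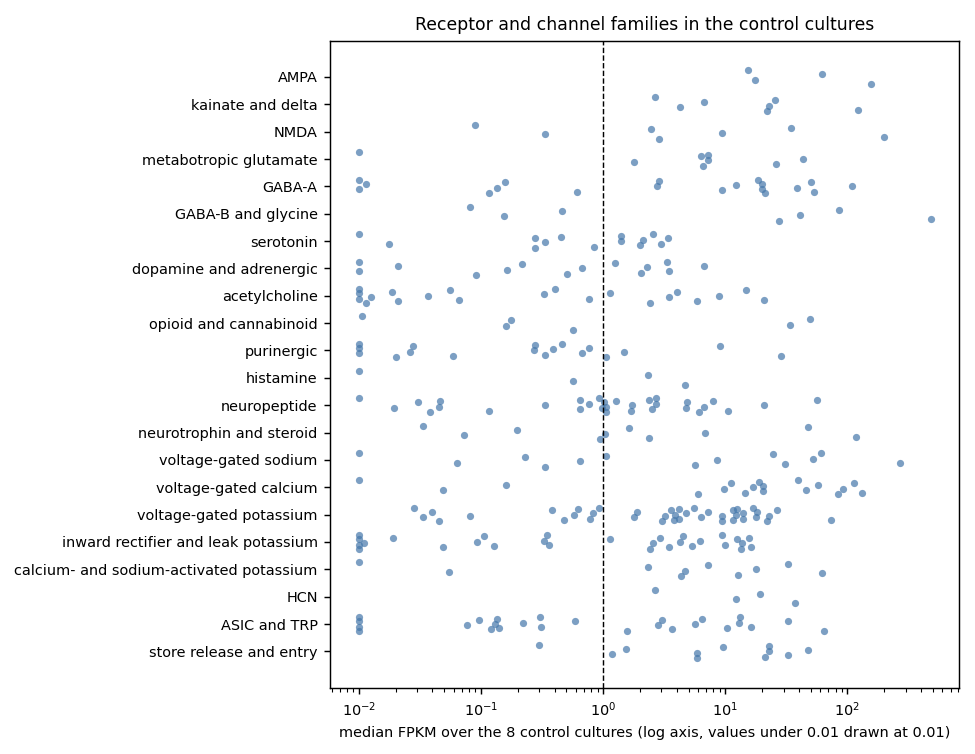
Each point is the median FPKM of 1 gene over the 8 control cultures (log axis), for 14 receptor and 8 channel families, with the dashed line at 1 FPKM. All AMPA, kainate and delta, and HCN genes lie above 1 FPKM, and no serotonin receptor gene reaches 10 FPKM.

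Immediate early genes, which are induced by activity, were low to moderate. Of 15 genes 13 passed 1 FPKM, with Jun at 37.2 FPKM, Nr4a3 at 28.9 FPKM and Egr3 at 13.3 FPKM. Fos was at 1.57 to 3.88 FPKM, Arc at 1.24 to 2.22 FPKM and Npas4 at 2.69 to 3.72 FPKM. Among the genes named by the study, the tumour suppressor gene Trp53 had values of 55.9, 19.5, 21.6 and 63.1 FPKM with vehicle and 57.0, 65.3, 31.7 and 52.1 FPKM with TIA. The low and high values of Trp53 occurred in both drug groups. Fas, a death receptor gene, was at 0.330 to 0.925 FPKM, Tnfrsf10b at 0.471 to 1.38 FPKM, and Mmp3 was listed at 0 in all 8. The hypoxia factor gene Hif1a was at 71.6 to 92.6 FPKM, the sodium-calcium exchanger gene Slc8a2 at 30.1 to 40.4 FPKM and the calcium pump gene Atp2b3 at 7.96 to 11.5 FPKM. Adamts7, an extracellular protease gene, was at 1.68 to 3.12 FPKM, while Casp8 reached at most 0.318 FPKM.

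Whether TIA alone changed the baseline was asked by comparing CONTROL-TIA with CONTROL-VEH, 4 cultures each. No gene differed at 2-fold or more with an adjusted p of at most 0.05 (limma, Benjamini-Hochberg over 16170 genes), a share of 0% of all genes tested, while 621 genes (3.84%) had an unadjusted p under 0.05. None of 108 tested receptor and 108 tested channel genes was called, and the median log2 difference of these lists was 0.02 in both. The smallest p belonged to Grtp1, a gene with a GTPase-activating domain, with values of 17.7, 20.4, 17.7 and 13.4 FPKM with vehicle and 4.49, 5.72, 3.74 and 2.81 FPKM with TIA. The 2 groups of Grtp1 did not overlap, and its log2 difference was -2.05 ± 0.22 (SE) at an adjusted p of 0.20 by limma. Grtp1 and Myh10, described next, were chosen by their p, so a lack of overlap follows in part from that choice. The share of all genes without overlap was not counted. With isoforms weighted by length the difference of Grtp1 was -0.86 at a limma adjusted p of 0.044, short of 2-fold.

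Myh10, a non-muscle myosin, had values of 151, 133, 152 and 122 FPKM with vehicle and 227, 208, 227 and 233 FPKM with TIA (log2 difference 0.68, limma adjusted p 0.35). Its summed values did not overlap between the groups, but its difference was 0.084 with isoforms weighted by length. Rnaseh1 (0.75), Fam234b (-0.70) and Aktip (-0.55), the next by p, had limma adjusted p-values of 0.90, and their differences were 0.31, -0.20 and -0.18 with that weighting. In simulated data of the same design, a set of changed genes was placed among all genes, with independent noise. Of those changed by 1.5 on the log2 scale, 71.9% to 74.5% were called. A set of changed genes eases the adjusted threshold, so these shares do not hold for a lone change such as that of Grtp1. Changes of this size, and smaller ones, may have been missed. Taking the 8 controls as 1 group is a choice of description, and the absence of calls does not show that the drug groups were equal.

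Most genes varied little between the controls. For the 12904 genes whose mean reached 2 FPKM, the median SD of log2(FPKM + 0.1) was 0.20, or 0.17 without CONTROL-VEH 4, and 87.5% of genes had an SD under 0.5. It was 0.20 within CONTROL-VEH and 0.16 within CONTROL-TIA, against 0.28 within OGD-VEH and 0.23 within OGD-TIA. An SD of at least 1 was found for 247 genes (1.91%). Taken separately, 363 genes reached that SD within CONTROL-VEH and 234 within CONTROL-TIA, with 118 genes in common. None of the 76 receptor and 94 channel genes at that mean level was among the 247.

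Genes with near-identical copies, whose reads are hard to assign, were frequent among the 247. Processed pseudogenes gave 105 of them, 17.2% of the 609 measured, against 111 protein-coding genes, 0.960% of 11561. Of 18 histone genes 9 were included. Leading the protein-coding genes by SD was Gm43552, which alternated between 0 FPKM in CONTROL-VEH 2 and CONTROL-TIA 7 and 35.7 to 137 FPKM in the other 6. The histone genes Hist2h2aa1 and Hist2h2aa2, neighbouring near-identical copies, were complementary in CONTROL-VEH 3, where the first was at 37.0 FPKM and the second at 0, whereas in the other 7 the first was at 0.01 FPKM or less and the second at 27.3 to 82.9 FPKM.

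The other protein-coding genes among the 15 of largest SD were Ccl27, Fyb, Gm28305, Gm20662, Gm49325, Gm20537, Hist1h4n, Gm42791, Hist1h3i, Hist1h2bq, Gm43191 and Hist1h4m, each near 0 in at least 1 culture. Fyb, an adaptor gene of blood cells, was at 0.029 and 0.144 FPKM in CONTROL-TIA 6 and CONTROL-TIA 8 and at 16.4 to 56.6 FPKM elsewhere. With isoforms weighted by their length, 164 of the 247 kept an SD of at least 1, of which 37 were protein-coding.

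CONTROL-VEH 4 differed most from the rest. In it, 111 genes were at least 2-fold above each of the other 7 cultures and 92 at least 2-fold below, against 10 to 23 and 9 to 24 for any other control. Weighted by length, the counts were 97 and 75, against 1 to 7 and 4 to 19. Among the genes at least 2-fold above the others (0.86% of 12904) were 3 of 12 astrocyte, 2 of 13 GABAergic and 1 of 10 progenitor genes, and none of the 14 pan-neuronal and 10 proliferation genes. The genes named for this culture were chosen after their values were seen. Apoe, the main lipid carrier of astrocytes, was at 3535 FPKM against 1208 to 1564 FPKM, Cst3 at 5702 FPKM against 1886 to 2621 FPKM, Aldoc at 838 FPKM against 234 to 330 FPKM and Clu at 236 FPKM against 47.1 to 89.3 FPKM. Glul, at 999.8 FPKM against 785 to 990 FPKM, lay just above the others, and Slc1a2, at 69.8 FPKM, was within their range of 26.9 to 82.8 FPKM.

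Several interneuron genes were high in this culture as well. Calb2 was at 72.7 FPKM against 22.5 to 32.3 FPKM, Dlx1 at 139 FPKM against 50.5 to 76.5 FPKM, Adarb2 at 37.5 FPKM against 5.12 to 12.7 FPKM and Cck at 443 FPKM against 160 to 232 FPKM. Of all genes whose mean reached 2 FPKM, 23.9% were highest in CONTROL-VEH 4, compared with 11 of 13 GABAergic, 8 of 12 astrocyte, 5 of 10 progenitor, 4 of 10 interneuron subtype, 6 of 10 proliferation, 6 of 10 oligodendrocyte lineage, 4 of 14 pan-neuronal, 17 of 76 receptor and 19 of 94 channel genes. The receptor and channel lists were thus near the share of all genes. The summed FPKM of the GABAergic list was 711 in this culture and 341 to 465 in the other 7, and that of the astrocyte list 2819 and 1671 to 2077. The sum of the progenitor list was instead lowest here, 1649 against 1728 to 2125.

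Among the genes lowest in CONTROL-VEH 4 were the linker histone genes Hist1h1c, at 14.5 FPKM against 163 to 243 FPKM, and H1f0, at 48.6 FPKM against 118 to 145 FPKM, the activity-regulated neuropeptide precursor gene Vgf, at 9.71 FPKM against 43.1 to 67.3 FPKM, and the hexokinase gene Hk2, at 0.125 FPKM against 0.571 to 5.47 FPKM. Slc17a7 and Map2 were within the range of the others, and Tubb3 was at 1222 FPKM against 815 to 1008 FPKM. The mean log2(FPKM + 0.1) of the glutamatergic list was lowest here, 5.31 against 5.45 to 5.65. Of its 10 genes 4 were lowest and 1 highest in this culture, where 24.1% of all genes were lowest. Its summed FPKM, 874, was within the range of the others, 812 to 1046. The estimated depth of this library (24100000 reads) equalled that of CONTROL-TIA 7. Genes called higher after OGD in a fit without CONTROL-VEH 4 had a median log2 difference of 0.32 between it and the mean of the other 7, and genes called lower one of -0.40. For the other controls, each treated in the same way, these medians ran from -0.11 to 0.27 and from -0.17 to 0.10. By count CONTROL-VEH 4 was not the most extreme for genes called higher, of which 295 of 482 lay above the mean of the other 7. CONTROL-TIA 5 had 348 of 492 and CONTROL-VEH 1 had 257 of 403. Of genes called lower, 84 of 329 lay above that mean in CONTROL-VEH 4 and 107 of 348 in CONTROL-TIA 7. Over all genes, the median log2 difference from the mean of the other 7 was 0.058 in CONTROL-TIA 5 and 0.033 in CONTROL-VEH 1. It was 0.0066 in CONTROL-VEH 4 and -0.021 in CONTROL-TIA 7. The counts are not corrected for these shifts, and the share of all genes above that mean was not counted. The other 7 controls enter both the calls and these differences, so the 2 are not independent. The part of the astrocyte and interneuron markers in these differences was not tested.

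**Figure D5:**
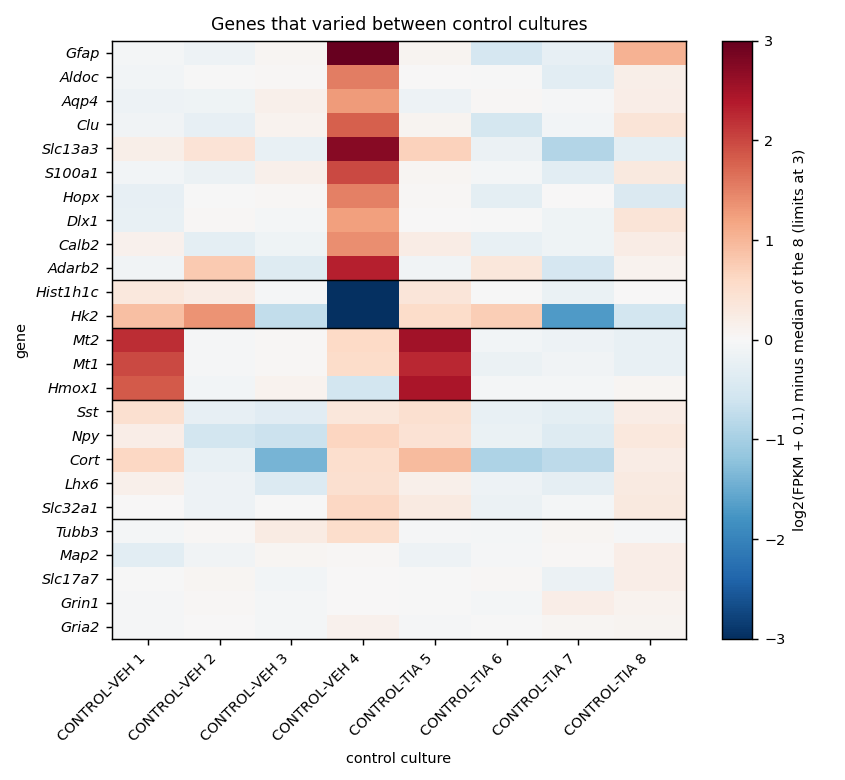
Log2(FPKM + 0.1) minus the median of the 8 control cultures, for 25 genes chosen after their values were seen, with blocks for genes high or low in CONTROL-VEH 4, metallothionein and heme oxygenase genes, interneuron genes, and even neuronal genes (colour limits at 3). CONTROL-VEH 4 is red for Gfap (87.4 FPKM) and blue for Hist1h1c (14.5 FPKM), and CONTROL-VEH 1 and CONTROL-TIA 5 are red for Mt2 (4501 and 5588 FPKM).

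A second pattern joined 1 culture of each drug group. Mt2 and Mt1 encode metallothioneins, small proteins that bind zinc and copper, and Hmox1 encodes the inducible heme oxygenase. Mt2 had values of 4501, 959, 996 and 1473 FPKM with vehicle and 5588, 921, 874 and 833 FPKM with TIA. Mt1 had values of 1512, 374, 388 and 559 FPKM with vehicle and 1836, 335, 355 and 328 FPKM with TIA. CONTROL-VEH 1 and CONTROL-TIA 5 were thus high for both, and the extremes of Mt2 were 6.71 times apart.

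Hmox1 had values of 74.0, 19.7, 22.2 and 14.1 FPKM with vehicle and 114, 19.9, 19.8 and 21.5 FPKM with TIA, high in the same 2 cultures. The brain metallothionein gene Mt3 was not, at 332 to 675 FPKM with its highest value in CONTROL-VEH 4, and the zinc exporter gene Slc30a1 was at 9.92 and 10.1 FPKM in these cultures against 8.20 to 8.99 FPKM. Of all pairs of controls, this one shared the most genes at least 2-fold above the other 6, 12 genes against 0 to 5 in any other pair, and 4 genes (Mt1, Mt2, Hmox1 and the pseudogene Gm5228) with isoforms weighted by length. These genes were chosen after their values were seen.

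Mt1 and Mt2 lie next to each other on chromosome 8, and their promoters are shown because metal response elements, to which the zinc-sensing factor Mtf1 binds, are the known control sites of these genes. The windows run from 250 bases before to 50 bases after the RefSeq start (GRCm38.p6, plus strand), at chr8:94178839-94179138 for Mt1 and chr8:94172368-94172667 for Mt2. Capitals mark the core letters TGCACNC or TGCGCNC on either strand.
Mt1: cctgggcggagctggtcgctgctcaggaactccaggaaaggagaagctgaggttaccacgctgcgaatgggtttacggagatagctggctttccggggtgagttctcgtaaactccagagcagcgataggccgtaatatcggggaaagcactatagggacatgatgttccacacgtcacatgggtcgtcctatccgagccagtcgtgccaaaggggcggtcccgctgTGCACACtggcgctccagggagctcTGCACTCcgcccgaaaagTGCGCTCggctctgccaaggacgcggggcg
Mt2: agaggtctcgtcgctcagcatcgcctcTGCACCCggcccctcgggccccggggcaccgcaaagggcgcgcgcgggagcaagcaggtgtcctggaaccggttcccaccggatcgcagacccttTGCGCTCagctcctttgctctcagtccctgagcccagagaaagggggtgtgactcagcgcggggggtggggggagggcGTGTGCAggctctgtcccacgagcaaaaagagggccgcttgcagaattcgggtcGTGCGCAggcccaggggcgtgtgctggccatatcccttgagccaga
The Mt1 window held 3 matches and the Mt2 window 4, and the ratio of Mt2 to Mt1 levels was 2.46 to 3.04 over the 8 controls. Counted from the start, the Mt1 matches began at bases -23, 3 and 21 and the Mt2 matches at -223, -128, -50 and 5. Those with positive positions thus lie after the start. Of 32851 promoters of the same length, 25.7% held at least 1 match, 1.97% at least 3 and 0.517% at least 4. The Mt3 window held 1 match. A match describes letters and not a bound site.

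The interneuron peptides followed a different order of the cultures. Sst (chr16:23889573-23890958) had values of 363, 222, 206 and 330 FPKM with vehicle and 367, 226, 213 and 304 FPKM with TIA, so that cultures 1, 4, 5 and 8 were high and the other 4 were low. Npy, with 56.3, 33.3, 31.5 and 76.3 FPKM with vehicle and 66.4, 42.6, 37.4 and 61.0 FPKM with TIA, was highest in the same cultures. Cort, the cortistatin gene, had values of 4.73, 2.60, 1.09 and 4.33 FPKM with vehicle and 5.94, 1.54, 1.73 and 3.53 FPKM with TIA. The 4 highest values of Gad1, Slc32a1, Lhx6 and Htr3a also came from these cultures, whereas Slc17a7 did not follow them. This grouping was chosen after the values were seen, and the share of all genes with this order was not counted. The summed FPKM of the GABAergic list was 394, 711, 442 and 465 in cultures 1, 4, 5 and 8 and at most 376 in the others. That of the glutamatergic list was 869, 874, 910 and 1046 in cultures 1, 4, 5 and 8 and 812 to 965 in the others. The sample labels give no litter, plate or day that could be set beside this order, and both drug groups had 2 high and 2 low cultures.

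The Sst promoter is shown because its cyclic AMP response element is the classical example of an activity-dependent site. The window of 250 bases before to 50 bases after the RefSeq start lies on the minus strand at chr16:23890795-23891094, and capitals mark the letters TGACGTCA, found at 48 to 41 bases before the start.
Sst: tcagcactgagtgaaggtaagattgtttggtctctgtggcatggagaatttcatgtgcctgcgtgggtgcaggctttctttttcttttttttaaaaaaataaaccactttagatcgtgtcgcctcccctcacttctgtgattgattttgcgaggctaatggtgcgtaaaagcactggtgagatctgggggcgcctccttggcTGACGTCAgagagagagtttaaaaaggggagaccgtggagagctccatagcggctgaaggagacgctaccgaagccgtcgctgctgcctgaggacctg
These letters, which read the same on both strands, occurred in 1.79% of the 32851 promoters. They were not found in the Npy and Cort windows of the same length.

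The controls were finally set beside the 8 OGD cultures with limma, with TIA as a covariate. At 2-fold or more and an adjusted p of at most 0.05, 780 genes (4.78% of 16313) were called, 456 (2.8%) higher and 324 (1.99%) lower after OGD. The same fit called 14 of 106 tested receptor genes lower and 2 higher, and 12 of 106 channel genes lower and none higher. Without the fold threshold 32.1% of all genes passed and 13.4% were lower, compared with 61 of the 106 receptor genes, 57 of the 106 channel genes and 12 of the 14 pan-neuronal genes. The median log2 difference was -0.54 for the receptor genes, -0.48 for the channel genes and -0.61 for the pan-neuronal genes, against 0.08 over all genes. The count of calls rests on both drug groups unequally, with 668 calls among the vehicle cultures alone and none among the TIA cultures alone, where 3174 genes had an unadjusted p under 0.05, and the difference between the drug groups was not tested here.

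Slc17a7 was at 43.7 to 56.7 FPKM in the controls and at 7.01 to 40.4 FPKM after OGD. It fell by 1.11 on the log2 scale (SE 0.28, limma adjusted p 0.0091). The fall was short of 2-fold without OGD-VEH 12 (-0.89), with sample weights (-0.87) and among the TIA cultures alone (-0.65). Among the vehicle cultures alone it was -1.57 at a limma adjusted p of 0.053. Sst fell by 1.72 (SE 0.31, limma adjusted p 0.0024), with the OGD cultures at 38.9 to 190 FPKM, below each control. Syt1, the calcium sensor of transmitter release, and Gria1 fell by 1.11 and 1.06. Syt1 fell short of 2-fold without OGD-VEH 12 (-0.93) and with sample weights (-0.88). Gria1 did so without CONTROL-VEH 4 (-0.94), CONTROL-TIA 8 (-0.99), OGD-VEH 10 (-0.99) or OGD-VEH 12 (-0.98). It also did so with isoforms weighted by length (-0.77) and with sample weights (-0.91). Among the TIA cultures alone Syt1 (-0.69) and Gria1 (-0.74) were both short of 2-fold. Tubb3 (-0.61) passed the adjusted p narrowly (limma, 0.045) but not the fold threshold, and that p ran from 0.027 to 0.093 when 1 culture was left out (0.084 without CONTROL-VEH 4), while Map2 (-0.17), Gad1 (-0.52) and Aqp4 (0.18) passed neither.

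Vim, an intermediate filament of radial glia and reactive astrocytes, rose from 356 to 550 FPKM in the controls to 697 to 2593 FPKM after OGD (log2 difference 1.39, SE 0.23, limma adjusted p 0.0019), without overlap. The oligodendrocyte lineage genes Olig2, Sox10 and Pdgfra rose by 1.07, 1.17 and 1.19. Olig2 fell just short of 2-fold without OGD-VEH 10 (0.995) or OGD-VEH 12 (0.99), and Pdgfra with isoforms weighted by length (0.99). Gfap had a log2 difference of 1.23 at a limma adjusted p of 0.10 over all 16 cultures, and of 1.67 without CONTROL-VEH 4, where it passed both thresholds. The 5 smallest p-values belonged to Ifi30, Emp1, Gbp2, 1700020I14Rik and Fam53b, of which Emp1, a membrane protein gene, rose from 0.369 to 1.28 FPKM in the controls to 5.52 to 34.2 FPKM after OGD. Hmox1 rose by 2.45 (SE 0.50, limma adjusted p 0.0039), and the range after OGD, 64.2 to 439 FPKM, overlapped that of the controls only through CONTROL-VEH 1 and CONTROL-TIA 5.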

How the data were processed

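RNA-seq libraries of 16 cultures were analysed, and group and number were taken from the sample labels. According to the methods of the study, the authors used stranded poly(A) libraries, 50-base single-end reads, STAR mapping to GRCm38 with Ensembl annotation and eXpress isoform estimates. The submitters' processing notes also name FastQC and DESeq2, and versions are not given in the sources used here. The name of the deposited table gives its unit, FPKM for each isoform with TMM normalization by the authors, and no raw counts were used here. Estimated sharing of reads between isoforms and similar copies is therefore already in the values. Of 135276 lines, 74 without identifier were dropped, and 135202 isoforms were summed over 53679 gene symbols. Gene types and positions came from GENCODE M21, in which 99.89% of the isoforms were found, and promoters from RefSeq on GRCm38.p6.

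Levels were described by the median, or by the mean and SD, of the 8 controls. Both comparisons used limma 3.58.1 in R 4.3.3 with a mean-variance trend on log2(FPKM + 0.1) for genes whose mean reached 0.5 FPKM, with calls at a Benjamini-Hochberg adjusted p of at most 0.05 and a log2 difference of at least 1. Differences on that scale understate the change of low genes. The fits were tested on simulated data. Depth was estimated from the smallest steps of 17592 single-isoform transcripts and is approximate.

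Named genes were the 6 markers, the 3 highest members of each of 44 lists and those listed at 0, the 10 highest protein-coding genes, the 15 of largest SD, the 5 of smallest p per comparison, the genes the study names and all immediate early, sex chromosome and erythroid genes. Members of lists beyond the 3 highest, and the genes of single cultures, were added after their values were seen. Some of these genes are not reported here. The members and lists were chosen with earlier results of these data known. Alternatives were other pseudocounts, filters, scalings, length weighting of isoforms, sample weights, and leaving out each culture.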

Additional observations from a re-analysis of the deposited data

Results flagged for a closer look

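In each of 163 values over the 8 control cultures (151 named genes and 12 list levels), the gap between the most extreme culture and its nearest neighbour was divided by the whole range and set against Dixon's 95% critical value for 8 samples. It was passed by 25 (15.3%), where chance would give about 1 in 20, and 17 of the 25 were passed because of CONTROL-VEH 4. The values are not independent of each other.

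For CONTROL-VEH 4 the share of the range was 0.607 for the neuron minus astrocyte difference, 0.706 for the GABAergic level and 0.598 for the astrocyte level. Among glial, progenitor and proliferation genes it was 0.73 for Aldoc, 0.747 for Aqp4, 0.621 for Gfap, 0.615 for Slc1a3, 0.782 for Sox2 and 0.61 for Top2a, and it was 0.732 for the mural gene Pdgfrb, all highest there. Among interneuron genes it was 0.692 for Calb2, 0.633 for Cck and 0.59 for Dlx1, all highest there. Among receptor, channel and transport genes it was 0.576 for Adra2c and 0.768 for Chrnb2, both lowest there, and 0.651 for P2ry1 and 0.727 for the calcium pump gene Atp2b3, both highest there.

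CONTROL-TIA 5 passed the value through the ependymal and choroid level (0.619) and Folr1 (0.575), both highest there, and through Sox5 (0.583), lowest there. CONTROL-VEH 3 passed it through Lhx2 (0.591), highest there, and through Grik5 (0.625) and Kcnt1 (0.703), both lowest there. Htr2c was lowest in CONTROL-TIA 7 (0.551) and Maoa highest in CONTROL-TIA 8 (0.549).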

How the results depend on the processing

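No paired analysis was made, since the labels number the cultures 1 to 16 and name no shared preparation. The fits treat the cultures as unpaired, so a spread shared by cultures at the same place would count as residual spread. Cultures at the same place in each group were alike in some values. The neuron minus astrocyte difference was lowest of its group in CONTROL-VEH 4, CONTROL-TIA 8, OGD-VEH 12 and OGD-TIA 16. The ependymal and choroid level was highest of its group in cultures 1, 5, 9 and 13. Among the controls, Mt1, Mt2 and Hmox1 were high in CONTROL-VEH 1 and CONTROL-TIA 5, and Sst was high in cultures 1, 4, 5 and 8. Whether such cultures share a preparation was not tested. Of the alternatives to the main results, 87 stayed on their side of the threshold or within the limits set and 9 moved. With no filter on low values 4 genes were called between the drug groups. Without CONTROL-VEH 4, 1 gene passed the limma adjusted p between the drug groups (0.024) but was short of 2-fold. With a pseudocount of 1, 394 genes were called after OGD, 146 genes were variable between the controls and the neuron minus astrocyte difference was 2.81. That difference was 2.05 over list genes with a median of at least 1 FPKM, a construction that drops the lowest astrocyte genes. Among the TIA cultures alone 0 genes were called after OGD, with 4 cultures a group and 3174 genes at an unadjusted p under 0.05. The count of variable genes was 131 at a mean of at least 5 FPKM, 444 at 1 FPKM and 111 over protein-coding genes. When each culture was left out in turn, genes at 1 FPKM or more ran from 14211 to 14274, receptor and channel genes at that level from 192 to 193, calls between drug groups from 0 to 0, calls after OGD from 526 (without OGD-VEH 12) to 1058 (without OGD-VEH 9), variable genes from 221 to 269 and the neuron minus astrocyte difference from 3.09 to 3.23. Aqp4 after OGD, not called, ran from -0.00897 (without OGD-VEH 12) to 0.33 (without CONTROL-VEH 4) when 1 culture was left out. Among named genes, 70 alternatives lost a call and 21 gained one. The depth limits what can be said of receptor genes below about 0.1 FPKM, and the isoform model limits near-identical copies. The cause of the other changes was not tested.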
